A study of Homo sapiens with 20 samples.

Results

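The MYC locus at 8q24 was described here as the stretch of chromosome 8 from 127.5 to 129.3 Mb of the hg19 build, which holds LRATD2 (FAM84B in older annotation), PCAT1, POU5F1B, MYC and PVT1. Every CTCF peak and every H3K4me3 or H3K27ac region that overlapped this interval by at least 1 bp was taken, in each of the 20 libraries. The interval is 1.80 Mb long and makes up 0.0581% of chromosomes 1 to 22, X and Y. It held 1 to 31 CTCF peaks of the 2021 to 46364 in each list, 40 to 61 H3K4me3 regions of 36637 to 59920, and 146 to 167 H3K27ac regions of 70099 to 99157. Peaks that touched each other in any of the 12 CTCF libraries were merged into 44 CTCF sites.

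The study asked which CTCF-binding sites stay occupied once CTCF has been depleted, and whether active histone marks change with it. LNCaP cells, an androgen-sensitive prostate cancer line, and IMR90 cells, a normal lung fibroblast line, were transfected with 20 nM of a non-targeting siRNA pool (control) or of a CTCF siRNA pool, split and transfected again, and harvested at 144 h. CTCF was profiled by ChIP-seq in LNCaP and in IMR90, and once more in IMR90 with a low-cell kit, while H3K4me3 and H3K27ac were profiled in LNCaP only. Each of the 10 groups holds 2 libraries, described as biological duplicates, and every group, controls included, was transfected with siRNA. The study's methods give a different transfection reagent for IMR90, and the study reports a smaller knockdown of CTCF mRNA there than in LNCaP. Cell line, reagent and extent of depletion thus cannot be told apart. The CTCF siRNA pool held 4 sequences, shown because they define the treatment of every depleted library.

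CTCF siRNA 1: gaugaagacugaaguaaug
CTCF siRNA 2: ggagaaagaagaagagua
CTCF siRNA 3: gaagaugccugccacuuac
CTCF siRNA 4: gaacagcccauaaacauag

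CTCF is a zinc-finger protein that binds DNA at a long motif and halts the cohesin complex, so that pairs of bound sites form the anchors of chromatin loops. MYC encodes a transcription factor that drives cell growth, and its promoter lies in a wide gene-poor interval in which enhancers far away on either side contact it. H3K27ac marks active promoters and enhancers, and H3K4me3 marks promoters. PVT1 and PCAT1 are long non-coding RNAs, the latter named for prostate cancer, LRATD2 is a protein-coding gene near the start of the interval, and POU5F1B, which lies between it and MYC, is a retrogene of the pluripotency factor POU5F1.

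The lists give no read numbers, so the precision of a single peak is known only through the second library. The CTCF siRNA library 1 of LNCaP, which by the study's read totals was the least sequenced of the LNCaP CTCF libraries, had the shorter list. It held 3724 peaks genome-wide, beside 7730 in library 2. The LNCaP histone lists carried the marks of the labelled cell. The luminal prostate genes KLK3, KLK2, FOLH1, TMPRSS2 and HOXB13 each had an annotated start in an H3K27ac region in all 4 libraries, against 52.3% of protein-coding genes. Of the 3 basal genes (KRT5, TP63, KRT14) none had one in all 4, of the 3 fibroblast genes (COL1A1, COL3A1, THY1) COL1A1 did, and the leukocyte genes PTPRC and CD3E had none in any library. The IMR90 label was not checked in this way, since only CTCF was profiled there.

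CTCF binding at the locus fell after CTCF siRNA in both cell lines. LNCaP control libraries held 23 and 31 CTCF peaks in the interval, and the CTCF siRNA libraries held 2 and 6. IMR90 held 26 and 26 in control and 12 and 13 after CTCF siRNA with the standard protocol. With the low-cell protocol the numbers were 12 and 13 in control against 3 and 1. Control and depleted libraries did not overlap in any of the 3 experiments. On the log2(peaks + 1) scale the mean change over the experiments was -1.95 (exact permutation test within experiments, two-sided, p = 0.00926, the smallest p that 216 arrangements allow). In a single experiment, with 2 libraries against 2, the exact permutation test cannot go below p = 0.33.

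**Figure D1:**
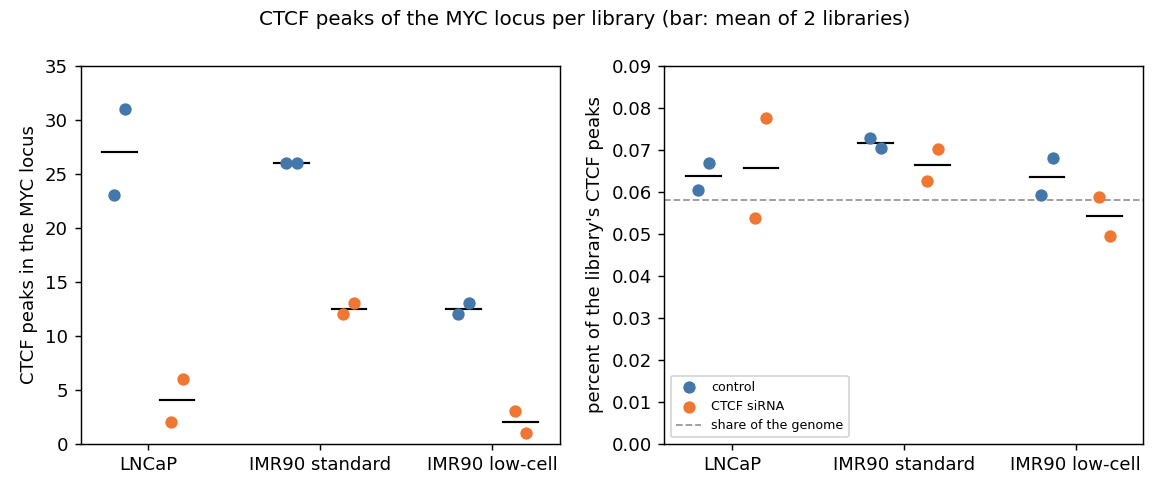
CTCF peaks of the MYC locus in each library (left, number of peaks) and as a percent of all CTCF peaks of that library (right), with the mean of 2 libraries as a bar and the share of the genome that the locus makes up as a dashed line. The numbers fell in all 3 experiments, for example from 23 and 31 to 2 and 6 in LNCaP, while the percentages of control and CTCF siRNA libraries lay between 0.0495 and 0.0776.

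Whether the locus lost more or less than the rest of the genome depended on how the lists were compared. The locus held 0.0663% of a library's CTCF peaks in control, as the mean of the 3 experiments, and 0.0620% after CTCF siRNA. The difference of -0.00425 percentage points did not pass the test (exact permutation test, two-sided, p = 0.380). In LNCaP the percentages were 0.0605 and 0.0669 in control against 0.0537 and 0.0776, so the depleted libraries lay on both sides of the controls. In IMR90 they were 0.0728 and 0.0705 against 0.0626 and 0.0701 with the standard protocol, and 0.0592 and 0.0679 against 0.0587 and 0.0495 with the low-cell protocol. In both IMR90 experiments the depleted libraries were below the controls. When all lists of an experiment were shortened to the strongest peaks, as many as the shortest list holds, the direction turned and the difference became 0.0281 percentage points higher after CTCF siRNA (exact permutation test, p = 0.0463). The shortest lists held 3724 peaks in LNCaP, 18539 in IMR90 and 2021 in the low-cell experiment. Of these 2, 13 and 1 lay in the locus, so the difference rests on few peaks. Shortening drops the weaker control peaks and leaves the shortest list whole, and its part in the turn was not tested. The change in LNCaP (-2.60 on the log2 scale) and in IMR90 with the standard protocol (-1) differed by -1.60, which did not pass an exact permutation test (p = 0.389, smallest possible 0.0556).

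**Figure D2:**
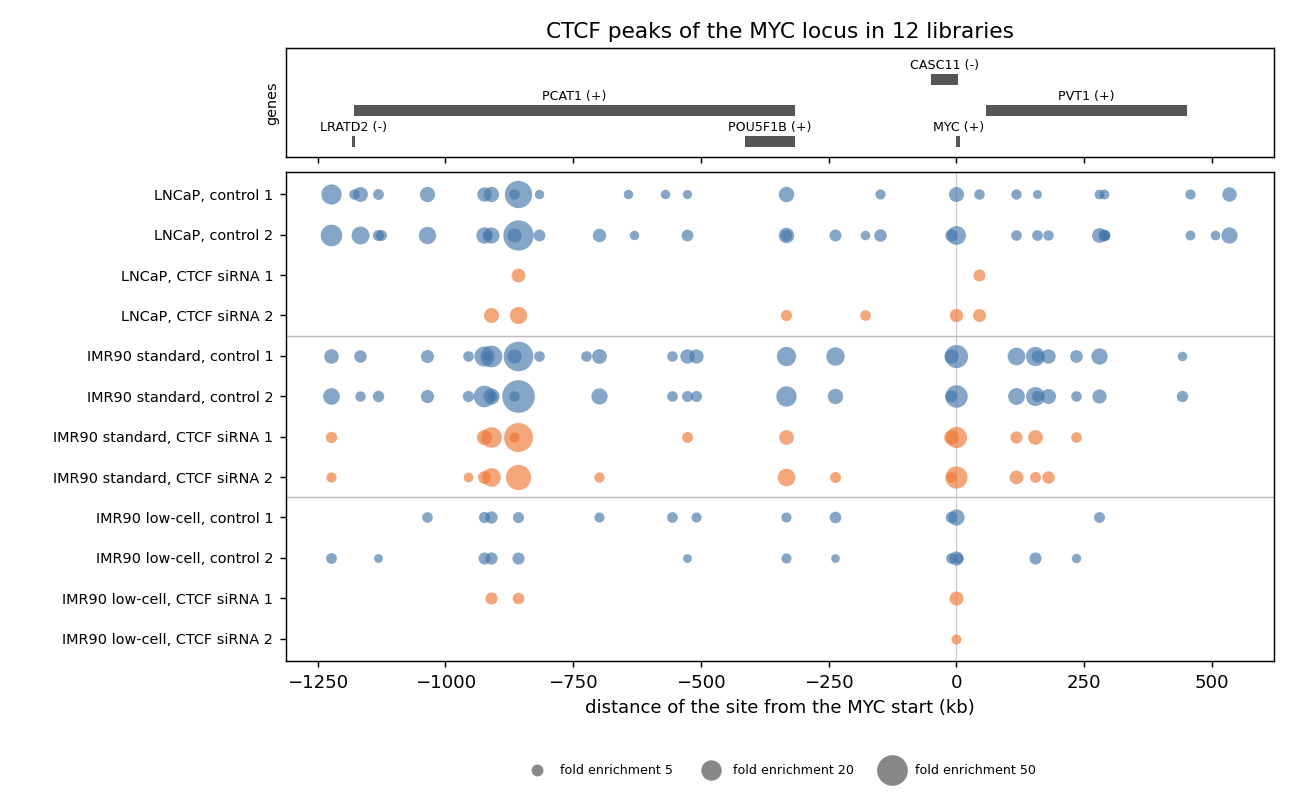
CTCF peaks of the MYC locus in the 12 CTCF libraries, by distance from the MYC start in kb, with the area of a point rising with the peak's fold enrichment over local background and the genes drawn above. Control libraries (blue) hold up to 31 peaks, CTCF siRNA libraries (orange) between 1 and 13, and the sites 858 kb and 1.35 kb before MYC have a peak in 11 of the 12 libraries.

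A control site, one with a peak in both control libraries, is called persistent here where both CTCF siRNA libraries also had a peak. The study's own definition asks for a peak in wild-type cells as well, which were not analysed here, so its set of sites is a different one. LNCaP had 19 control sites in the interval. Of these 1 was persistent, 3 kept a peak in just 1 depleted library and 15 kept none. Over the genome 9.26% of LNCaP control sites were persistent and 78.6% had a peak in neither depleted library, close to the 78.9% of the locus. IMR90 with the standard protocol had 23 control sites, of which 9 were persistent, 7 kept a peak in 1 depleted library and 7 kept none, beside 51.4% persistent and 33.9% in neither over the genome. With the low-cell protocol 1 of 7 control sites was persistent and 4 had no peak left, beside 10.9% and 71.7%. No site of the interval had a peak in both CTCF siRNA libraries of an experiment and none in its controls. Not one of the 44 sites was seen only after CTCF siRNA.

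The LNCaP count of 1 was limited by the shorter depleted list, since the rule asks for a peak in both. Leaving out a library makes the rule easier to meet, so a rise in the counts below is largely built in. Without CTCF siRNA library 1 it became 4 of 19, and without control library 2 it became 2. In the low-cell experiment the count was 3 without CTCF siRNA library 2, whose list was the shortest of all.

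The site with the highest fold enrichment at the locus, in LNCaP and in IMR90 with the standard protocol, lay 858 kb before MYC, at chr8:127888735-127889374. It overlaps an exon and a transcript start of PCAT1 as GENCODE draws that gene, from 127568568 to 128431295. Fold enrichment, the height of a peak over the local background of its own library, was 44.6 and 55.1 in LNCaP control and 10.5 and 17.1 after CTCF siRNA. This was the persistent LNCaP site. In IMR90 the values were 52.8 and 64.1 in control and 50.3 and 37.8 after CTCF siRNA, and in the low-cell libraries 6.36 and 7.82 against 7.08 and no peak. The depleted libraries were below the controls in LNCaP, with a ratio of mean levels of 0.276, and in IMR90, with a ratio of 0.754. Within their own lists the control peaks ranked high, at percentiles of 99.6 and 99.8 in LNCaP, but the low-cell control peaks stood at percentiles of 29.3 and 50.4.

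The site nearest to the MYC promoter, chr8:128745908-128746585, lay 1.35 kb before the MYC start and over an exon and a start of CASC11, an antisense lncRNA that begins inside MYC. A CTCF site just before the MYC promoter is known as a candidate insulator and as a place where distant enhancers dock. Fold enrichment was 12.7 and 20.7 in LNCaP control, absent from CTCF siRNA library 1 and 9.69 in library 2. In IMR90 it was 31.6 and 29.8 in control and 26 and 28.9 after CTCF siRNA. The low-cell libraries gave 14.8 and 10.9 in control and 10.9 and 4.93 after CTCF siRNA, and this was the persistent low-cell site. It thus had a peak in every library except 1, and in IMR90 its depleted level was 0.894 of control. It held the CTCF consensus with 0 mismatches.

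A weaker neighbour, chr8:128737895-128738354, lay 9.54 kb before MYC inside CASC11. It was not a control site in LNCaP, where only control library 2 had a peak (8.29). In IMR90 it was persistent, with 11.2 and 7.71 in control and 12 and 5.85 after CTCF siRNA, so the groups overlapped. The low-cell controls had 7.12 and 5.96 and no depleted peak. Inside MYC itself, at chr8:128750574-128750932 over an exon, 1 low-cell control library had a peak of 5.22, and no other library had one.

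Far upstream, inside the long PCAT1 annotation, the sites 910 kb and 925 kb before MYC behaved differently from each other. At chr8:127836567-127837245 the level was 13.1 and 14.6 in LNCaP control and 12.7 in CTCF siRNA library 2, the only LNCaP depleted library with a peak. IMR90 had 27.9 and 14.9 in control and 24.8 and 20.3 after CTCF siRNA, which overlap. The low-cell libraries had 8.15 and 8.05 in control and 7.93 in CTCF siRNA library 1. This site also carried the consensus with 0 mismatches, and it was the 1 control site besides that at MYC that lay in H3K4me3 regions of all 4 LNCaP libraries. At chr8:127822135-127822540 LNCaP lost both peaks of 11.5 and 15.3, and IMR90 fell from 23.7 and 27.4 to 12.8 and 8.94.

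A site 334 kb before MYC, chr8:128412819-128413542, covered an exon of CCAT2, a lncRNA named for colon cancer, within the POU5F1B annotation. LNCaP had 13.6 and 13.6 in control, no peak in CTCF siRNA library 1 and 6.45 in library 2. IMR90 kept it at 12.1 and 17.9 after CTCF siRNA, below 21.6 and 24.4 in control. The 2 low-cell controls had 5.18 and 5.08, and neither depleted library had a peak. POU5F1B had no LNCaP control CTCF site within 5000 bp of its annotated starts.

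At the LRATD2 end of the interval no LNCaP site kept a peak. The site chr8:127522465-127522938, 1224 kb before MYC, had 23.9 and 27.4 in LNCaP control, the next highest LNCaP site after that at PCAT1, and no depleted peak. IMR90 kept it at 6.69 and 5.31, from 11.9 and 15.9. Over the LRATD2 start itself, at chr8:127568664-127569097, only LNCaP control library 1 had a peak, of 5.44. The nearest control site, chr8:127579113-127579535, had 12.4 and 18.5 in LNCaP and 8.43 and 5.36 in IMR90, and no depleted peak in either.

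Within PVT1 IMR90 had 7 control sites and LNCaP 4. The LNCaP sites, at 3.79 to 12.2 in single control libraries, kept no depleted peak. At chr8:128864256-128864706, over a PVT1 exon 116 kb after MYC, LNCaP control had 5.33 and 5.76 where IMR90 had 18 and 16.2, and IMR90 kept 7.95 and 10.4 after CTCF siRNA. At chr8:128902265-128902743, over an exon and a start of PVT1, IMR90 had 21.3 and 20.8 in control and 12 and 6.16 after CTCF siRNA, and no LNCaP library had a peak. Those were the persistent sites of the gene. Near other PVT1 starts, the site 159 kb after MYC had 3.79 and 5.92 in LNCaP and 7.62 and 6.35 in IMR90 control, and the site 290 kb after had 4.79 and 6.18 in LNCaP control, and neither kept a peak. The site 179 kb after MYC had 11.7 and 12.7 in IMR90 control and 8.41 in CTCF siRNA library 2, and the site 234 kb after had 8.85 and 5.68 in control and 5.74 in library 1.

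A pair of sites was seen only in LNCaP among those with a depleted peak. The site chr8:128792905-128793109, 45 kb after MYC, had 5.55 in control library 1 and none in control library 2, but 7.56 and 9.08 after CTCF siRNA. It is 1 of 2 peaks of the interval in CTCF siRNA library 1, is no control site by the rule, and lies in an H3K27ac region of all 4 libraries. The site chr8:128569204-128569464, 178 kb before MYC, had 4.36 in control library 2 and 5.72 in CTCF siRNA library 2. Neither held the CTCF consensus within 2 mismatches, the best matches having 4 and 5.

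The remaining sites with a depleted peak were IMR90 sites with a peak in a single depleted library. The site 955 kb before MYC had 5.74 and 6.62 in control and 4.58 in library 2. The site 865 kb before had 11.3 and 5.63 in control and 5.14 in library 1. The site 700 kb before had 12.2 and 15.0 against 5.28 in library 2. In each of these the depleted value was below both controls. The site 528 kb before, near a start of CASC19, had 11.7 and 6.09 in control and 6.09 in library 1. The site 238 kb before had 19.8 and 13.3 against 6.30 in library 2.

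**Figure D3:**
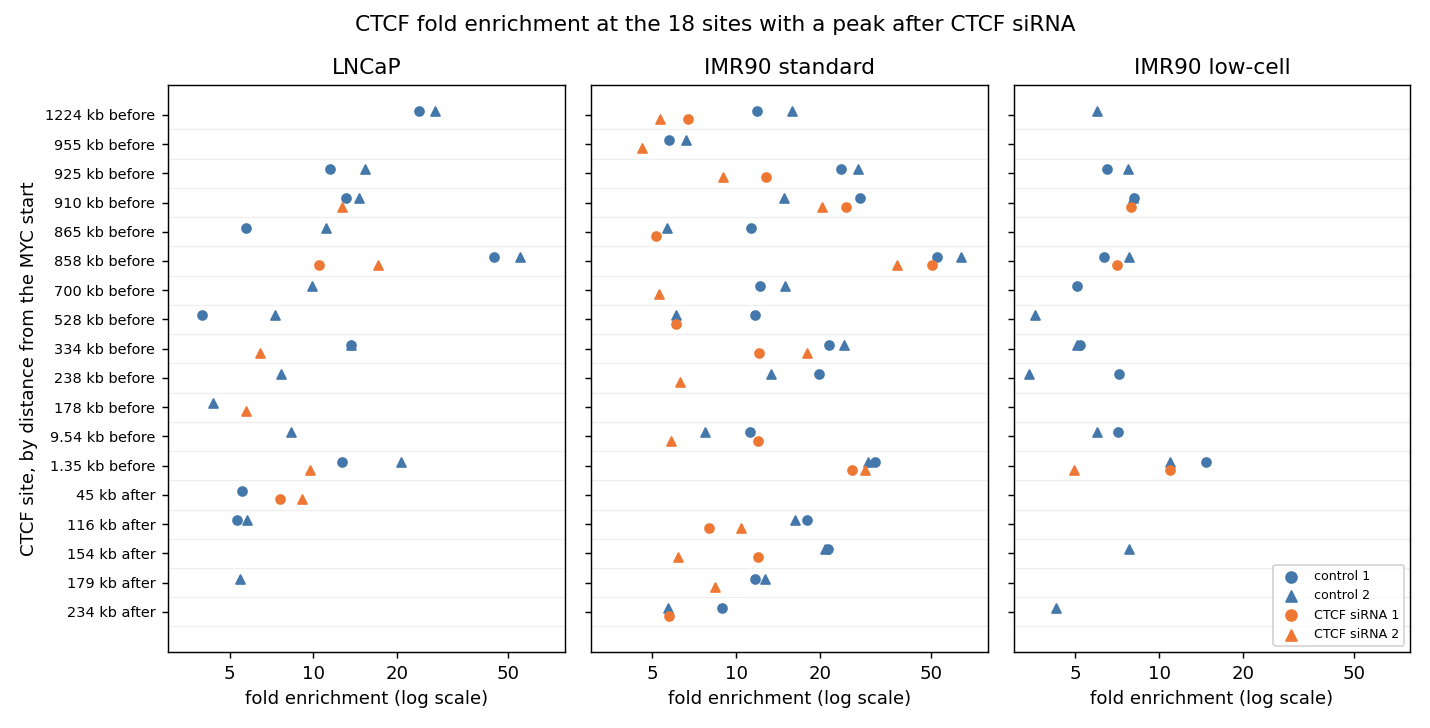
Fold enrichment on a log scale of the 18 CTCF sites of the MYC locus that had a peak in any CTCF siRNA library, listed by distance from the MYC start, with control libraries in blue, CTCF siRNA libraries in orange and replicates by shape. The site 858 kb before MYC fell from 44.6 and 55.1 to 10.5 and 17.1 in LNCaP, and the site 1.35 kb before MYC stayed between 26 and 31.6 in all 4 standard IMR90 libraries.

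Of the 9 IMR90 sites persistent in the standard experiment, 7 had a lower fold enrichment in both depleted libraries than in either control, and 2 overlapped. Over the genome 57.3% of the persistent IMR90 sites were lower in this way, so the share at the locus is read against that background. The median ratio of depleted to control level was 0.652 at the locus and 0.727 over the genome. In LNCaP the genome share was 77.4%, and the persistent site of the locus was among the lower ones. In the low-cell experiment it was 35.7%, and the persistent site of the locus, that at MYC, overlapped between groups. Fold enrichment is set against each library's own background, so these ratios are not scaled between libraries.

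Sites that kept a peak were on the whole those with the higher control level. In LNCaP the mean control fold enrichment was 49.8 at the persistent site, 13.6 to 16.7 at the 3 with a single depleted peak, and 4.86 to 25.7, median 6.79, at the 15 with none. In IMR90 the medians were 21.4, 8.88 and 6.98. All 6 IMR90 sites at 20 or more were persistent, as were 95.9% of such sites over the genome. None of the 10 LNCaP sites under 10 had a depleted peak, beside 2.75% of such sites over the genome. From 10 to 20 the distance from the genome depended on the measure. There 2 of 6 IMR90 sites were persistent (33.3%, beside 57.3%), and 5 of 6 had a depleted peak (83.3%, beside 78.3%). Of the 7 LNCaP sites 0 were persistent, beside 6.18% over the genome, and 3 had a depleted peak (42.9%, beside 17.5%). Control sites of the locus were lower than the genome median in LNCaP, at 8.43 against 12.5, and near it in IMR90, at 12.2 against 13.2.

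The control sites of the lines overlapped in part. Of the 19 LNCaP control sites, 13 (68.4%) overlapped an IMR90 control site, beside 74.1% over the genome, and 4 had no peak in any IMR90 control, or 21.1% beside 18.1%. Of the 23 standard IMR90 control sites, 13 (56.5%) overlapped a LNCaP control site, beside 79.4%, and 6 had no LNCaP control peak, or 26.1% beside 11.8%. Of the 13 sites in common, 10 had a higher mean control fold enrichment in IMR90 and 3 in LNCaP. The same count was not made over the genome, where the median control level was 13.2 in IMR90 and 12.5 in LNCaP. The lists of the lines were not scaled to each other. Over all 44 sites, 20 had peaks in both lines, 15 only in LNCaP libraries and 9 only in IMR90 libraries, and 12 were seen in a single library.

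A match to the 14-base CTCF consensus with up to 2 mismatches, searched on both strands within 100 bp of the summit, was found at 10 of 19 LNCaP control sites (52.6%), beside 74.0% over the genome. In IMR90 it was found at 13 of 23 (56.5%), beside 71.6%, and at 7 of 7 low-cell sites, beside 81.1%. Of all 44 sites 16 held a match, 13 of the 29 before MYC and 3 of the 15 after it. Among IMR90 control sites, 1 of the 7 after MYC and 12 of the 16 before it held a match. Of the 18 sites with a depleted peak 9 held a match, as did 7 of the 26 without one. This split was not made over the genome, and the 26 include the 12 sites seen in a single library. A match is a description of letters and not of binding.

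In LNCaP, H3K27ac covered the locus far more densely than the rest of the genome. The control libraries had 27.8% and 21.7% of the interval in H3K27ac regions, where 5.23% and 3.95% of the genome was covered, a ratio of 5.32 and 5.49. After CTCF siRNA 29.1% and 31.7% was covered, where the genome had 5.69% and 7.31%, a ratio of 5.11 and 4.34. H3K4me3 covered 2.91% and 4.54% in control and 3.34% and 5.94% after CTCF siRNA, or 1.40 to 1.79 times the genome's share.

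The bases of the locus in H3K27ac regions numbered 501250 and 390800 in control and 523150 and 571150 after CTCF siRNA. The depleted libraries were above both controls, by 101125 bases on average (exact permutation test, two-sided, p = 0.33, the smallest that 2 against 2 libraries allow). The H3K27ac lists as wholes covered more after CTCF siRNA too. As a percent of all bases in a library's H3K27ac regions the locus held 0.309 and 0.319 in control and 0.297 and 0.252 after CTCF siRNA, which turns the direction (difference -0.0396, exact permutation test, p = 0.33). The list that covered the most bases came from the library with the fewest reads of its mark by the study's read totals, and the part of depth in this result was not tested. For H3K4me3 the bases were 52350 and 81700 in control and 60150 and 107000 after CTCF siRNA. Those groups overlapped (difference 16550, exact permutation test, p = 0.67).

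**Figure D4:**
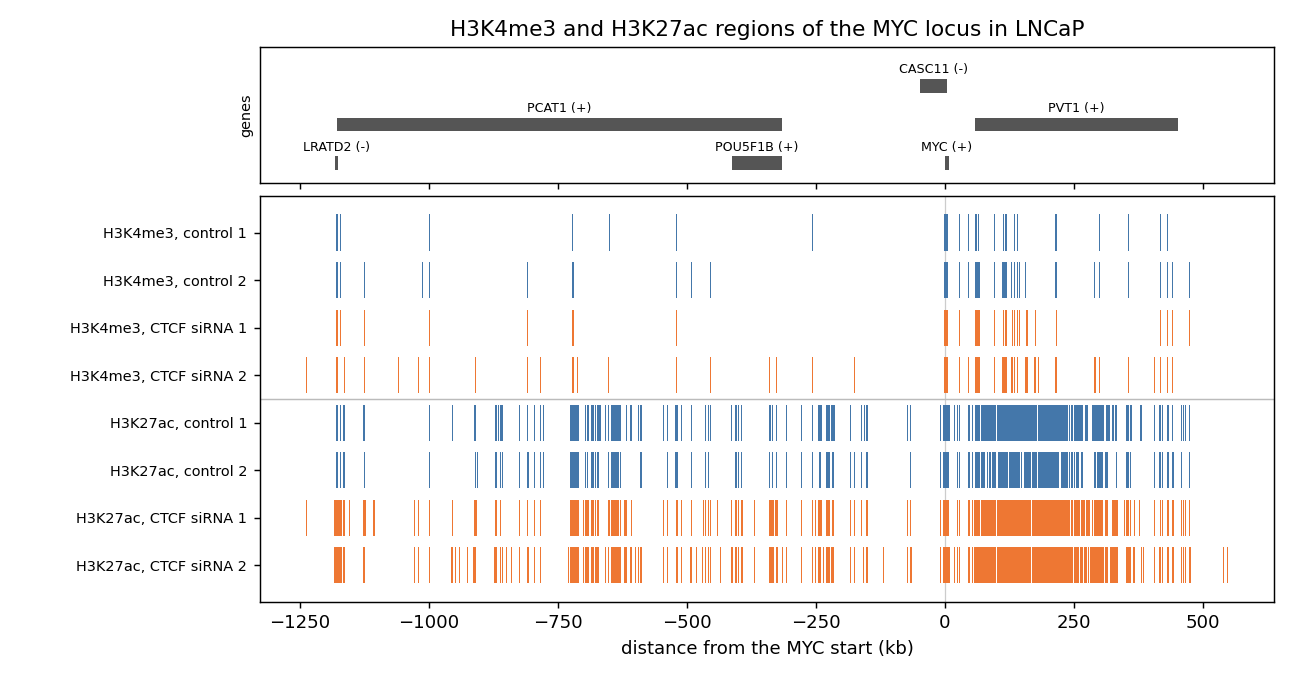
H3K4me3 and H3K27ac regions of the MYC locus in the 8 LNCaP histone libraries, by distance from the MYC start in kb, with control in blue, CTCF siRNA in orange and the genes above. H3K27ac regions fill most of PVT1 in all 4 libraries, and H3K4me3 regions lie at LRATD2, at MYC, at the PVT1 start and along PVT1.

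The acetylation was concentrated on PVT1. Within the gene, 67.8% and 54.3% of the bases lay in H3K27ac regions in control and 70.8% and 74.0% after CTCF siRNA. Between LRATD2 and CASC11, the part that holds most of PCAT1 and POU5F1B, the values were 17.5% and 13.1% against 17.8% and 20.5%. From CASC11 to the PVT1 start, the part with MYC, they were 25% and 21.3% against 25.9% and 27.8%. The part from the start of the interval to the LRATD2 end had 4.20% and 3.85% against 14.3% and 11.9%. In the last part, beyond PVT1, the values were 7.40% and 3.87% against 6.86% and 10.5%, and there the groups overlapped. In the other 4 parts both depleted libraries were above both controls. The same held for the genome, at 5.69% and 7.31% against 5.23% and 3.95% in control.

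**Figure D5:**
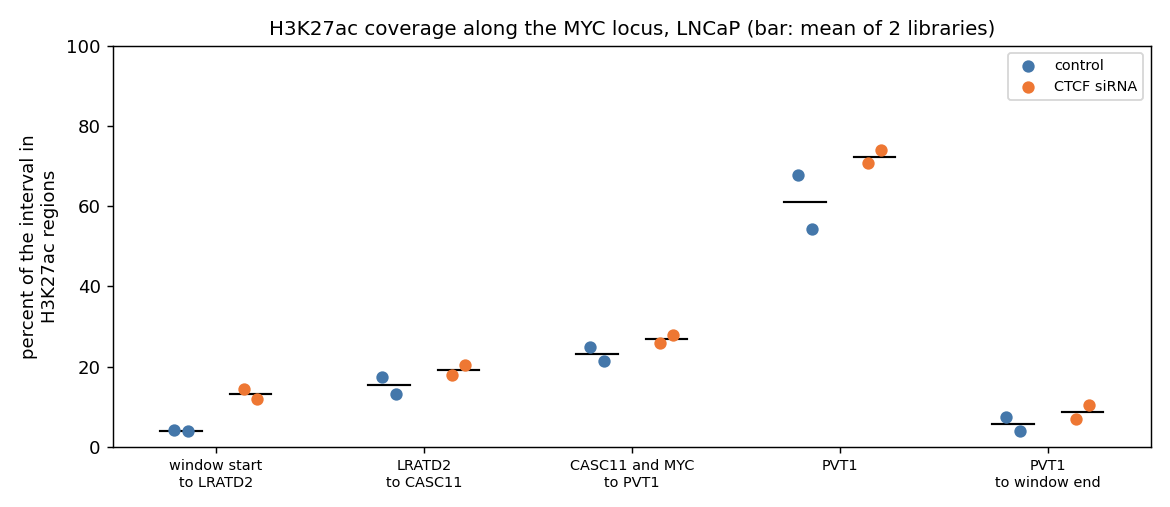
Percent of each part of the MYC locus in H3K27ac regions, for 2 control (blue) and 2 CTCF siRNA (orange) LNCaP libraries, with their mean as a bar. PVT1 stands at 54.3 to 74.0% in all 4 libraries, and the part up to LRATD2 at 3.85 and 4.20% in control and 11.9 and 14.3% after CTCF siRNA.

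Regions of a mark that overlapped were merged, and those found in at least 2 libraries were kept as consensus regions. The locus held 120 for H3K27ac, and 74 were called in all 4 libraries (61.7%, beside 56.9% over the genome). It held 44 for H3K4me3, and 23 were called in all 4 (52.3%, beside 58.9%). The widest H3K27ac consensus region, chr8:128848101-128996050 within PVT1, spanned 147950 bp and ranked 4 of 83272 in width over the genome. It was made of 23 and 37 pieces in control and 14 and 8 after CTCF siRNA, which covered 138300 and 119800 bases against 141350 and 144950. It held 5 of the CTCF sites merged over both cell lines, all of them in PVT1. Of these only the sites 116 and 159 kb after MYC were LNCaP control sites. The next widest, chr8:128804301-128847300, covered the PVT1 start, with 39400 and 33650 bases in control and 41050 and 42550 after CTCF siRNA. The third in width, chr8:128021151-128038400, lay over PCAT1 starts and hardly varied, with 16950, 16200, 15950 and 16500 bases. For H3K4me3 the widest was chr8:128805501-128815750 at the PVT1 start, which ranked 80 of 45684, with 5650 and 9900 bases in control and 8650 and 9650 after CTCF siRNA. The region chr8:128745351-128754650 over MYC came next, with 8500 and 7700 bases against 7750 and 9250.

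The MYC start lay in a wide region of both marks in every library. All 14 annotated MYC starts were inside an H3K4me3 region of 8500 and 7700 bp in control and of 7750 and 8200 bp after CTCF siRNA. The H3K27ac region over them was 13900 and 11600 bp wide in control and 12050 and 12550 bp after CTCF siRNA. The groups overlapped for both marks, and all 8 regions overlapped the CTCF site 1.35 kb before MYC. The PVT1 start carried an H3K4me3 region of 4450 and 4750 bp in control and 4450 and 4300 bp after CTCF siRNA, near constant. Its H3K27ac region was 10900 and 10100 bp in control, 11100 bp in CTCF siRNA library 1 and 42550 bp in library 2, where pieces called apart elsewhere had joined.

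The LRATD2 start was the promoter of the locus that widened in both marks. Its H3K27ac region was 4300 and 3700 bp in control and 10250 and 7550 bp after CTCF siRNA. Its H3K4me3 region was 3750 and 4500 bp in control and 4800 and 5150 bp after CTCF siRNA. The groups did not overlap, and 2 libraries against 2 give p = 0.33 at the least in an exact permutation test. Such widening was common: of the 47362 H3K27ac consensus regions of all 4 libraries, 46.9% had more bases in both depleted libraries than in either control, and 4.10% fewer. At the locus it was 27 of 74 (36.5%) with more and 4 (5.41%) with fewer. For H3K4me3 it was 3 of 23 at the locus (13%) with more and 0 with fewer, beside 16.4% and 5.89%.

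At PCAT1, 16 of 31 annotated starts lay in H3K27ac regions in each control library, and 15 and 18 after CTCF siRNA. For H3K4me3 the numbers were 8 and 9 in control and 11 and 11 after CTCF siRNA. Most of these H3K4me3 starts, and many of the H3K27ac ones, lay in the regions over the LRATD2 start. The starts with H3K4me3 in both depleted libraries and in neither control lay in the single region chr8:127888601-127889600. The region chr8:127938101-127940050 carried H3K4me3 in all 4 libraries, with 1200 and 1700 bases in control and 1650 and 1950 after CTCF siRNA, which overlap. POU5F1B had 1 of 3 starts in an H3K27ac region of 3550 and 3500 bp in control, and of 3200 and 3950 bp after CTCF siRNA, when library 2 had a region of 1750 bp over another start. It had no H3K4me3 there except in CTCF siRNA library 2, with a region of 1150 bp. All 5 genes thus had H3K27ac over a start in all 4 libraries, beside 52.3% of protein-coding genes. All but POU5F1B had H3K4me3 there, beside 64.2%. Any annotated start counted, with 132 at PVT1 and 31 at PCAT1, and PCAT1 shares the LRATD2 regions, so the genes are not independent. PCAT1 and PVT1 are also lncRNAs, a class that the shares of protein-coding genes leave out.

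Regions seen in both libraries of 1 treatment and in neither of the other were few. For H3K4me3, 2 of 44 (4.55%) were exclusive to CTCF siRNA, beside 6.44% over the genome, and 0 were exclusive to control, beside 2.55%. The H3K4me3 region chr8:127888601-127889600 had 900 and 1000 bases after CTCF siRNA. It lies over the strongest CTCF site of the locus, the persistent one 858 kb before MYC, and over a PCAT1 start. The other, chr8:128922801-128923900 within PVT1, had 650 and 1100 bases and held no CTCF site. At the first of these the H3K27ac consensus region chr8:127884651-127891900 covered 7250 and 5750 bases in control and 4150 and 5400 after CTCF siRNA, so the mark present in all 4 libraries was narrower in both depleted ones. The H3K4me3 count exclusive to CTCF siRNA was 17 without CTCF siRNA library 1 and 9 without control library 2. Leaving out a library loosens the rule, so a rise is largely built in. The regions exclusive to control numbered 8 without control library 1, 3 without control library 2, 4 without CTCF siRNA library 2 and 0 without CTCF siRNA library 1.

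For H3K27ac, 15 of 120 (12.5%) were exclusive to CTCF siRNA, beside 13.2% over the genome, and 2 (1.67%) were exclusive to control, beside 1.85%. The 17 were 1000 to 2850 bp wide, and 1 of them lay over an annotated start, of PVT1. Among all H3K27ac regions of the CTCF siRNA libraries, 87 of 167 and 89 of 146 overlapped the part between LRATD2 and CASC11, before MYC. Of the 15 exclusive to CTCF siRNA, 12 lay before MYC and 3 within PVT1. The widest, chr8:128126001-128128850 in CASC19 and the PCAT1 annotation, had 2450 and 2750 bases after CTCF siRNA. Next came chr8:129123501-129125500 in PVT1, with 1500 and 1200 bases. A group of 4 lay around POU5F1B and CASC8, at chr8:128377851-128379100, chr8:128382651-128384200, chr8:128415501-128417300 and chr8:128431451-128433300, with 800 to 1850 bases each. Further ones of the 10 widest lay before MYC, at chr8:127543251-127544850 between genes, and at chr8:127718501-127720000, chr8:127727001-127728500 and chr8:127797851-127799350 in the PCAT1 annotation, with 800 to 1500 bases each. Of the group of 4, chr8:128415501-128417300 begins at the base after chr8:128406251-128415500, an H3K27ac region called in all 4 libraries.

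The 2 H3K27ac regions exclusive to control were chr8:127881101-127882550, with 1450 and 850 bases, and chr8:127968401-127970050, with 1650 and 750. The first held the CTCF site 865 kb before MYC, which had 5.71 and 11.1 in LNCaP control and no LNCaP depleted peak. Among the 15 exclusive to CTCF siRNA, chr8:127615151-127616550 held the control site 1131 kb before MYC, with 6.02 and 6.52 in control and no depleted peak. Those were the exclusive H3K27ac regions with a CTCF site. With regions up to 1000 bp apart merged, 11 were exclusive to CTCF siRNA and 2 to control. When all H3K27ac lists were shortened to the length of the shortest by score, 7 were exclusive to CTCF siRNA and 5 to control. With 1 library left out, which loosens the rule, the first count ranged from 16 to 35. It was 34 without control library 1, 32 without CTCF siRNA library 1 and 35 without CTCF siRNA library 2. The second ranged from 3 to 13, at 5 without control library 1, 13 without control library 2 and 7 without CTCF siRNA library 1.

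CTCF sites of the locus lay in acetylated chromatin more often than CTCF sites did over the genome. Of the 19 LNCaP control sites, 12 and 10 were in an H3K27ac region in the control libraries (63.2% and 52.6%, beside 20.6% and 17.4%). After CTCF siRNA 11 and 12 were (57.9% and 63.2%, beside 19.7% and 22.7%), although 15 of the sites then had no peak. The locus is itself more densely acetylated than the genome by the ratios given above. Of the 19 sites, 9 were in an H3K27ac region in all 4 libraries and 5 in none. All 4 sites with any depleted peak were acetylated in all 4 libraries, at 910, 858, 334 and 1.35 kb before MYC. Over the genome 15.7 to 23.1% of sites with a depleted peak lay in an H3K27ac region of a library, beside 17.8 to 22.6% of those with none. For H3K4me3 the numbers were 3 and 5 of 19 in control (15.8% and 26.3%, beside 13.4% and 16.9%), and 4 and 7 after CTCF siRNA (21.1% and 36.8%, beside 14.2% and 19.3%).

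The acetylated regions below were picked from those around these sites after their values were seen. Over the genome 46.9% of H3K27ac regions of all 4 libraries had more bases in both depleted libraries than in either control, and 4.10% fewer. At the locus it was 36.5% and 5.41%. Others, such as chr8:127834801-127841000 at the site 910 kb before MYC, overlapped between groups. The H3K27ac region over CCAT2 and the site 334 kb before MYC, chr8:128406251-128415500, covered 5550 and 4250 bases in control and 9200 and 9250 after CTCF siRNA. The region beside the site 9.54 kb before MYC, chr8:128738351-128740350, covered 1000 and 850 bases in control and 1750 and 1600 after CTCF siRNA. In both the depleted libraries were above the controls. The region at the site 149 kb before MYC, chr8:128597201-128599550, covered 2350 and 2100 bases in control and 1750 and 1700 after CTCF siRNA, where the site had 5.14 and 8.44 in control and no depleted peak.

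Other genes of the interval numbered 25 in the annotation used. CASC11 had 4 of 5 starts in both marks in every library, in the same regions as MYC. H3K27ac lay over a start in all 4 libraries at 5 of the 25: CASC11, CASC19, LINC02912, MIR1205 and MIR1207, the last 2 being miRNA genes within PVT1. CCAT2 had it in all but control library 2. No H3K27ac lay over the starts of CASC8, PRNCR1, a lncRNA named for prostate cancer, or MIR1208. H3K4me3 lay over a start in all 4 libraries at CASC11 alone. Genes that share starts or overlap share these regions, so a region is not evidence for one of them over another.

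The other genes of the MYC network, spread over the genome, were read from the same libraries. MAX, the partner that MYC needs to bind DNA, MXD3, MXI1, MNT and MGA, which bind MAX in place of MYC, and MLX, a partner of the MLXIP family, had H3K27ac over a start in all 4 libraries. These are 6 of 12, beside 52.3% of protein-coding genes, and all 12 had H3K4me3, beside 64.2%. MYCN and MYCL, the paralogs of MYC, and MLXIPL had H3K4me3 and no H3K27ac region over a start in any library. MXD1 had it in CTCF siRNA library 2 alone, and MLXIP in both depleted libraries, over 4 of 11 starts each, and in no control. MXD4 had it over 1 of 4 starts in control library 1 and in CTCF siRNA library 2. Of the 12, 7 had a LNCaP control CTCF site within 5000 bp of a start, beside 38.5% of protein-coding genes, and 0 had a persistent one, beside 3.65%. MYC itself was in the same position, since its site kept a peak in a single LNCaP depleted library.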

How the data were processed

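ChIP-seq peak lists of 20 libraries were used, 12 for CTCF and 8 for histone marks, 2 per group. As per the study's methods, reads were mapped by the authors to hg19 (Bowtie, or cutadapt and BWA for the low-cell libraries), duplicates were discarded, by molecular identifiers in the low-cell libraries, and peaks were called per library with MACS2 (CTCF) and PeakRanger (H3K4me3, H3K27ac). The deposited CTCF lists give a fold enrichment, a ratio to local background, and −log10 p- and q-values per peak. The deposited histone lists give a score per region, whose meaning is not stated and which only ordered regions, a lower score taken as better. Neither is scaled between libraries, and read depth is not in the files, so no counting interval was given.

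Overlap of at least 1 bp on the autosomes, X and Y was computed in Python 3.11.15 with numpy 2.4.6, after the steps were tested on simulated data. Exact permutation tests exchanged treatment labels within experiments. Genes, exons and starts came from GENCODE release 44 on GRCh37, the same build as hg19. A control site needed a peak in both control libraries, and a consensus region 2 of 4 libraries. The CTCF consensus (14 bases) allowed 2 mismatches within 100 bp of the summit. Sites named in the text are all those with a peak after CTCF siRNA, control sites within 5000 bp of the starts of the 5 genes, the 3 strongest control sites per line, the 3 widest histone regions of each mark, those over the starts of the 5 genes, and exclusive regions, at most the 10 widest. Sites shown for contrast (such as those 1168, 1131 and 149 kb before MYC, the one inside MYC, and the H3K27ac regions around CASC8 and near CTCF sites) were added after their values were seen. CASC21, CCAT1, PCAT2, TMEM75, MIR1204, MIR1206 and LINC00824 were not matched by name. Some marker genes of the lists are not reported here. Members and gene lists were chosen with earlier results of these data known. Alternatives were another overlap, q of 0.001, either library, lists of equal length, other merging, a pseudocount of 0.5 and leaving out libraries.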

Additional observations from a re-analysis of the deposited data

How the results depend on the processing

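With 2 libraries per group the limits are those of single lists. A site without a peak is one below the caller's threshold in that library, and the lists differed in length and in covered bases. Of 85 alternatives over 15 results, 52 kept the direction and the side of the threshold, or the count within 1.5 times.

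Counting a peak in either library gave 6 persistent sites in LNCaP, 16 in IMR90 and 3 in the low-cell experiment, while q of at most 0.001 and lists of equal length each gave 0 there. Leaving out 1 library, which also loosens the rule, gave 1 to 4 in LNCaP, 9 to 13 in IMR90 and 1 to 3 in the low-cell experiment. The fall in CTCF peaks kept its direction but could not pass the threshold without LNCaP (-1.63), the standard IMR90 experiment (-2.43) or the low-cell experiment (-1.80), each at an exact permutation p = 0.0556, the smallest possible, nor with a single replicate number (-1.98 to -1.92, p = 0.250). The share of each list in the locus turned to 0.0281 with lists of equal length, and the cause was not tested. It ranged from -0.00583 to -0.00266 with 1 replicate number left out.

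H3K27ac regions exclusive to CTCF siRNA numbered 7 and those exclusive to control 5 with lists of equal length, and the latter 0 among the better-scored 50% of each list. With 1 library left out, and so under a looser rule, they ranged from 16 to 35 and from 3 to 13. For H3K4me3 the ranges were 2 to 17 and 0 to 8. The H3K27ac bases turned to -0.0396 as a percent of all bases in regions, an alternative chosen after seeing the data, and ranged from 45900 to 156350 with 1 library left out. The H3K4me3 bases ranged from -6875, without CTCF siRNA replicate 2, to 39975, and that reversal's cause was not tested. With up to 1 mismatch the consensus was found at 6 LNCaP, 7 IMR90 and 4 low-cell control sites.

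The libraries share only replicate numbers. Pairing by number as a replicate block gave p = 0.0312 for the fall in CTCF peaks (-1.95), p = 0.375 for the share (-0.00425), and p = 0.500 for the bases in H3K27ac (101125) and H3K4me3 regions (16550), by exact permutation of signs, and changed no call. Same-numbered deviations correlated at 0.43 for H3K4me3, -0.19 for H3K27ac, 0.18 for LNCaP CTCF, -0.01 for IMR90 and 0.01 for low-cell IMR90. Crossing the H3K27ac numbers, an alternative added after seeing the data, gave 0 calls, as before.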
